A study of Mus musculus with 2 samples.

Results

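Cytochrome c oxidase, complex IV of the respiratory chain, is described here through 10 nuclear genes in the hearts of young mice. The genes were chosen by name from the 55536 annotated genes in the tables, and all 10 were found. They are the paired forms of the Cox4i, Cox6a, Cox7a and Cox8 subunits (Cox4i2 and Cox4i1, Cox6a2 and Cox6a1, Cox7a1 and Cox7a2 with their relative Cox7a2l, Cox8b and Cox8a) and Ndufa4. Total RNA was sequenced from heart tissue of female B6CASTF1/J mice, first-generation hybrids between C57BL/6J and CAST/EiJ, at 14 days of age. The series held 1 group of 2 libraries, made from 300 ng of RNA each, to which ERCC spike-ins had been added, so there was no second group and no test between groups. The tissue labels number the animals 03 and 04, yet both libraries carry a single donor identifier and a shared description that mentions 3 females. Every SD below is therefore the spread between 2 libraries that may be partly technical. Levels are in TPM, a transcript abundance corrected for length and scaled to the same total in each library, so genes can be set side by side, and the deposited tables hold no values per allele.

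Complex IV passes electrons from cytochrome c to oxygen and pumps protons across the inner mitochondrial membrane. Its catalytic core is encoded in mitochondrial DNA, and the nuclear subunits around it regulate and stabilise the enzyme. Several nuclear subunits exist as a form made mainly in heart and skeletal muscle (Cox6a2, Cox7a1 and Cox8b) and a general form made in most tissues, also called the liver form (Cox6a1, Cox7a2 and Cox8a). In rodent hearts the muscle forms are known to increase around and after birth. Cox4i2 is a form of subunit 4 known from lung, vascular mural cells and responses to low oxygen, while Cox4i1 is the general form. Cox7a2l, also called SCAF1, helps join complexes III and IV into supercomplexes, and C57BL/6 mice are known to carry a shorter form of the protein. Ndufa4 was first assigned to complex I and is now counted as a subunit of complex IV.

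The stretch upstream of the start site is shown for the 2 muscle and general pairs in which RefSeq promoters of GRCm38.p6 were given for both members, because muscle and general forms differed there in CG content. Each sequence is the 250 bases before the RefSeq start, 5′ to 3′ on the gene's own strand, with every CG in capitals. The Cox7a1 stretch lies at chr7:30183921-30184170 on the plus strand, the Cox7a2 stretch at chr9:79759854-79760103 on the minus strand, the Cox8b stretch at chr7:140900447-140900696 on the minus strand and the Cox8a stretch at chr19:7217617-7217866 on the minus strand. In the annotation used for the levels, Cox7a1 starts at 30184144 and Cox7a2 at 79759878. The last bases of these 2 stretches thus lie inside the annotated genes.
Cox7a1: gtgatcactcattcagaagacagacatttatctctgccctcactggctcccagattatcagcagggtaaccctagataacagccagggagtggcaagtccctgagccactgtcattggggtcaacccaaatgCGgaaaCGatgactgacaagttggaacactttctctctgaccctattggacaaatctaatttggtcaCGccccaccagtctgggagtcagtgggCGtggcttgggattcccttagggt
Cox7a2: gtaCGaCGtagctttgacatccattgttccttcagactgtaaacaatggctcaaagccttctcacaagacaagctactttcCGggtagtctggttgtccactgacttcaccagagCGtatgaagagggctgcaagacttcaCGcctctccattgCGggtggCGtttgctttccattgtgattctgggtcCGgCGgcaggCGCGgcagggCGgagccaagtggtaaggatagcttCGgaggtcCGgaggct
Cox8b: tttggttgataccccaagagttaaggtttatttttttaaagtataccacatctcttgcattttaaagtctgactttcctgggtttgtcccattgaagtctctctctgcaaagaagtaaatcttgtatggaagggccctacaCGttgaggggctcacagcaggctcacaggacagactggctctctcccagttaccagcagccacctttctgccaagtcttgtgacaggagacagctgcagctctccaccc
Cox8a: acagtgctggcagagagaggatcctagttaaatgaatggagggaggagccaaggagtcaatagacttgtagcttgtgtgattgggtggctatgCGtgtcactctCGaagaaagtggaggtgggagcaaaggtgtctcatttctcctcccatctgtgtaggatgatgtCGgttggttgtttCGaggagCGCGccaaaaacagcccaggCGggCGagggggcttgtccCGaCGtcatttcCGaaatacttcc

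The Cox7a1 stretch held 4 CG dinucleotides, against 14 in the Cox7a2 stretch. The Cox8b stretch held 1 CG, against 11 in the Cox8a stretch. The ratio of observed to expected CG, which allows for base composition, was 0.244 for Cox7a1 against 0.751 for Cox7a2, and 0.0726 for Cox8b against 0.676 for Cox8a. Both muscle forms thus lay below the median of 0.374 over the 32851 RefSeq promoters in the table, and both general forms lay above it. Among all promoters, 36.02% had a ratio at or below that of Cox7a1 and 10.8% one at or below that of Cox8b. The other 3 matched genes also lay above the median, with ratios of 1.06 for Cox6a1 (26 CG), 0.778 for Cox7a2l (13 CG) and 0.604 for Ndufa4 (10 CG). Their stretches also lie at least partly inside the annotated genes. Cox4i1, Cox4i2 and Cox6a2 were not matched.

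A total of 5 short motifs were searched on both strands of the same 250 bases, and a match is only a description of the letters. The E-box CANNTG was found once each in Cox7a1, Cox7a2, Cox7a2l, Cox8b and Cox8a, and it occurs in 66.2% of all promoters. The Cox6a1 stretch held 1 match to the ETS motif CCGGAAG, which 6.91% of promoters hold. The SP1 motif GGGCGG, present in 32.7% of promoters, was found in Cox6a1 as 2 matches and in Cox7a2 and Cox7a2l as 1 match each. No match was found in the 7 genes for the ERR motif TNAAGGTCA, held by 1.14% of promoters, or the TATA motif TATAAA, held by 12.4%. None of these motifs contains another of the set.

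The libraries held 36404376 expected counts in replicate 1 and 34569708 in replicate 2, and counting intervals given below cover counting error only. The heart label fitted its markers: all 7 cardiomyocyte genes exceeded 1 TPM, led by Myh6 at 10296 and 10478 TPM, Myl2 at 6897 and 7564 TPM and Actc1 at 6656 and 7208 TPM, with Ryr2 lowest at 419.8 and 400.2 TPM. Replicate 1 stood apart in 2 marker lists. The 10 lung and airway genes summed to 186 TPM in replicate 1 and 12.1 TPM in replicate 2, and the 7 blood genes to 35952 TPM and 27772 TPM. The counts of the libraries differed beyond sampling noise, with a chi-square per degree of freedom of 12.6 over 16384 genes, so they were not 1 library deposited under 2 labels.

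Subunit 4 was almost wholly in its general form. Cox4i1 (chr8:120668222-120674207 in mm10, plus strand) was the highest of the 10 genes, with 1770.2 TPM in replicate 1 and 1872 TPM in replicate 2, a mean of 1821 ± 72.0 TPM (SD, n = 2). It ranked 19 among 22015 nuclear protein-coding genes. Cox4i2 (chr2:152754173-152765037, plus strand) was the lowest, with 7.99 and 6.81 TPM, a mean of 7.40 ± 0.834 TPM (SD, n = 2) and rank 6923. Its expected counts of 141 and 116 were nevertheless far above the 3 counts that a count of 0 allows. Cox4i2 made up 0.449% of the pair in replicate 1 and 0.362% in replicate 2, and the log2 ratio of Cox4i2 over Cox4i1 was −7.95 ± 0.22 (SD, n = 2), which sets Cox4i1 247-fold higher.

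Cox4i2 is known from vascular mural cells and from lung, and markers of pericytes and smooth muscle and of lung and airway were detected. Whether the lung and airway markers stand for cells that make Cox4i2 was not tested. All 11 pericyte and smooth muscle markers exceeded 1 TPM, and they summed to 549 TPM in replicate 1 and 550.0 TPM in replicate 2, led by Acta2 (164 and 175 TPM), Rgs5 (163 and 149 TPM) and Abcc9 (93.1 and 103 TPM), with Cnn1 lowest at 3.98 and 2.23 TPM. The near-equal sums cover 6 markers that were higher in replicate 1 and 5 that were lower. Of the 10 lung and airway markers, 6 reached 1 TPM and all 6 exceeded the fold set for a difference between libraries, higher in replicate 1: Scgb1a1, Scgb3a1, Scgb3a2, Cyp2f2, Bpifa1 and Wfdc2. Scgb1a1, a secretory protein of the airway, had 97.6 TPM in replicate 1 and 5.96 TPM in replicate 2. The surfactant genes of the alveoli were low, with Sftpa1 at 1.43 and 0.03 TPM, Sftpc at 0 and 0.85 TPM, Sftpb at 0.34 and 0.03 TPM and Sftpd, the lowest of the list, at 0.36 and 0 TPM. In replicate 2 alone 3 of the 10 lung and airway genes reached 1 TPM. Cox4i2 was 1.15-fold higher in replicate 1 by counts, with a 95% counting interval from 0.896 to 1.49 that includes 1, beside the 15.3-fold gap of the lung list. The part of mural or lung cells in the Cox4i2 level was not tested, and in tissue RNA fewer cells of a type cannot be told apart from less RNA per cell.

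Subunit 6a was mainly in its muscle form. Cox6a2 (chr7:128205435-128206387, minus strand) had 699 TPM in replicate 1 and 699.8 TPM in replicate 2, with a mean of 699.6 ± 0.290 TPM (SD, n = 2). Cox6a1 (chr5:115345642-115348981, minus strand) had 156 and 182 TPM, with a mean of 169 ± 18.5 TPM (SD, n = 2). Cox6a2 stood above Cox6a1 in both libraries, with no overlap. The muscle form held 81.8% of the pair in replicate 1 and 79.4% in replicate 2, a log2 ratio of 2.05 ± 0.16 (SD, n = 2), or 4.15-fold. The 2 libraries differed in this share through Cox6a1, since the Cox6a2 level was almost the same in both.

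Subunit 8 was divided in nearly the same proportion. Cox8b (chr7:140898945-140900446, minus strand), the muscle form, had 875 and 926 TPM, with a mean of 900.5 ± 35.8 TPM (SD, n = 2), and ranked 41 among nuclear protein-coding genes. Cox8a (chr19:7215153-7217616, minus strand), the general form, had 233 and 264 TPM, with a mean of 249 ± 22.0 TPM (SD, n = 2). The groups of values did not overlap, and Cox8b held 79.0% of the pair in replicate 1 and 77.8% in replicate 2. The log2 ratio of Cox8b over Cox8a was 1.86 ± 0.07 (SD, n = 2), or 3.63-fold.

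Subunit 7a was the most evenly divided. Cox7a1 (chr7:30184144-30186078, plus strand), the muscle form, had 784 and 781 TPM, with a mean of 782.6 ± 1.73 TPM (SD, n = 2). Cox7a2 (chr9:79755361-79759878, minus strand), the general form, had 416 and 426 TPM, with a mean of 421 ± 6.83 TPM (SD, n = 2). In these TPM values Cox7a1 held 65.3% and 64.7% of the pair, a log2 ratio of 0.89 ± 0.03 (SD, n = 2), or 1.86-fold. This was the only one of the 5 ratios whose direction turned with the processing. In the second quantification, whose columns are those that kallisto writes, Cox7a1 had 878 and 955 TPM and Cox7a2 had 913 and 939.6 TPM, so that the log2 ratio was −0.06 in replicate 1 and 0.02 in replicate 2. Summed over all transcripts of each gene, Cox7a1 and Cox7a2 thus stood at about equal levels in the second quantification. There, protein-coding transcripts held 100% of the Cox7a1 level but 45.9% of the Cox7a2 level. A ratio of coding transcripts alone was computed only in the first quantification. Which estimate is nearer to the true level was not tested.

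Cox7a2l (chr17:83501918-83517330, minus strand) was the lowest gene of the 7a family. It had 124 and 131 TPM, with a mean of 127 ± 4.50 TPM (SD, n = 2). Against Cox7a2 it stood at a log2 ratio of −1.73 ± 0.03 (SD, n = 2), or 3.31-fold lower, and it lay below Cox7a2 in both libraries. Its counts were divided with another gene. Gm6969, a processed pseudogene, shares 7.77% of the 100-base windows of the Cox7a2l transcripts and held 703.53 and 693 expected counts (103 and 105 TPM), beside 3413.47 and 3465 for Cox7a2l itself. In the second quantification Gm6969 held 72.1 and 81.1 estimated counts, beside 4142 and 4294 for Cox7a2l. The sum of both genes was 4117 and 4158 in the first quantification and 4214 and 4375 in the second, so the sums lay closer together than the Cox7a2l counts alone.

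Ndufa4 (chr6:11900292-11907497, minus strand) was the second highest of the 10 in the first quantification and lay below Cox8b in the second. It had 1097 and 1114 TPM, with a mean of 1106 ± 12.2 TPM (SD, n = 2), and ranked 28 among nuclear protein-coding genes. Its paralog Ndufa4l2, known to be induced by low oxygen, had 16.04 and 16.86 TPM. Ndufa4 was 68.4-fold higher than Ndufa4l2 in replicate 1 and 66.1-fold higher in replicate 2, a log2 ratio of 6.07 ± 0.03 (SD, n = 2).

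**Figure D1:**
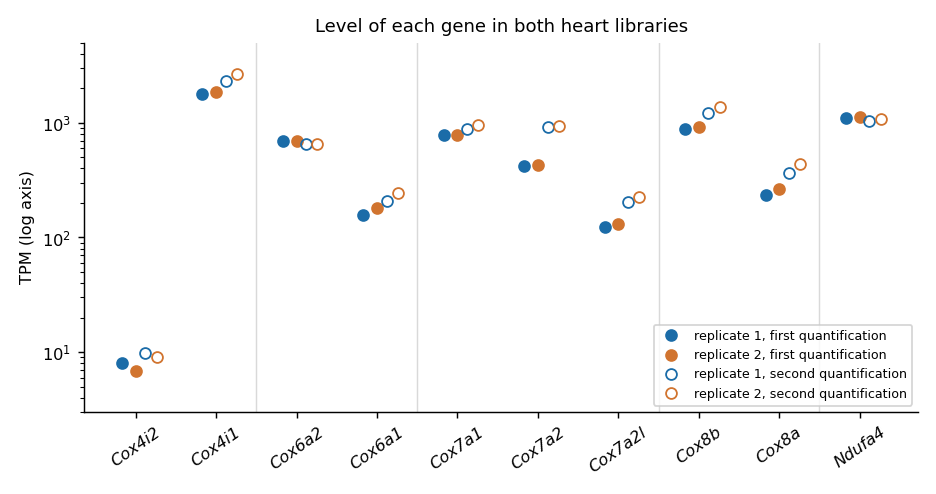
TPM (log axis) of each of the 10 genes in replicate 1 and replicate 2, as filled points for the first quantification and open points for the second, grouped by subunit. Cox6a2, Cox7a1 and Cox8b lie between 699 and 926 TPM in the first quantification, above their general forms, while Cox4i2 lies between 6.81 and 7.99 TPM, far below Cox4i1.

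In order of mean level the genes ran Cox4i1, Ndufa4, Cox8b, Cox7a1, Cox6a2, Cox7a2, Cox8a, Cox6a1, Cox7a2l and Cox4i2. All 9 pairs of neighbours in this order were apart, meaning that the lower library of the higher gene exceeded the higher library of the lower gene. The closest neighbours were Cox7a1 over Cox6a2, at 1.12-fold, and Cox8b over Cox7a1, at 1.15-fold. Without Cox4i2 the levels spanned 14.3-fold, and with it 246-fold. The 3 muscle forms occupied neighbouring places, above the 3 general forms that they pair with. In the second quantification this was not so: Cox8b at 1295 ± 121 TPM was followed by Ndufa4 at 1056 ± 24.6 TPM, and Cox7a2 at 926 ± 18.6 TPM stood above Cox7a1 at 917 ± 54.3 TPM and Cox6a2 at 655 ± 1.80 TPM (SD, n = 2 each).

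Each position in the enzyme is filled by 1 form at a time, so the sums of the paired forms were set beside the subunits that have a single form in heart. The sums were 1829 ± 71.2 TPM for Cox4i2 and Cox4i1, 868 ± 18.8 TPM for Cox6a2 and Cox6a1, 1204 ± 5.11 TPM for Cox7a1 and Cox7a2, and 1149 ± 57.8 TPM for Cox8b and Cox8a (SD, n = 2 each). These 4 sums spanned 2.11-fold. Cox7a2l was left out of them. With it the 7a sum was 1331 ± 9.61 TPM, and 2059 ± 88.1 TPM in the second quantification (SD, n = 2 each). The 6 single forms, counted without Ndufa4, spanned 2.93-fold, with Cox6b1 highest at 1837 and 1954 TPM, Cox6c next at 1046 and 1109 TPM and Cox5a at 957 and 962 TPM. Cox7b and Cox7c were lowest at means of 652 and 647 TPM. All 4 sums fell within the range of the single forms.

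**Figure D2:**
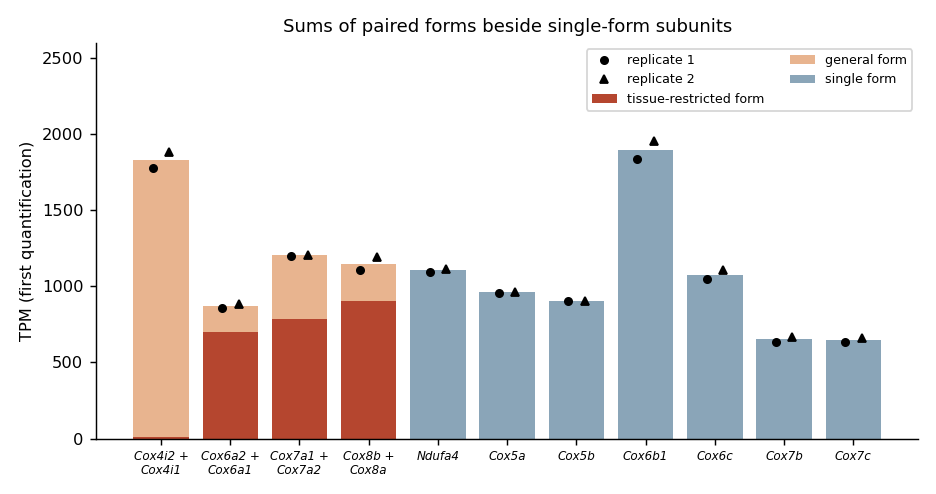
Mean TPM of the first quantification for 4 sums of paired forms, stacked with the tissue-restricted form below the general form, beside Ndufa4 and 6 single-form subunits, with points for replicate 1 and replicate 2. The sums lie between 868 and 1829 TPM and the single forms between 647 and 1896 TPM.

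The range of the sums moved with the quantification. In the second one the 4 sums ran from 882 to 2508 TPM, or 2.84-fold, and the 6 single forms from 1079 to 2128 TPM, or 1.97-fold. Cox6b1, the highest single form in the first quantification at 1896 ± 83.0 TPM, was the lowest of the 6 in the second at 1079 ± 91.6 TPM (SD, n = 2 each). The sum of Cox4i2 and Cox4i1 then exceeded every single form, and that of Cox6a2 and Cox6a1, at 882 TPM, lay below every one.

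Forms restricted to testis were low or not detected. Cox7b2 and Cox8c had 0 counts in both libraries, which at these depths allows up to 0.0829 and 0.0873 CPM. Cox6b2 had 2.94 and 2.91 TPM, while all 6 testis markers (Prm1, Prm2, Tnp1, Tnp2, Ldhc and Pgk2) had 0 counts. Of the other 9 nuclear subunit genes, 7 exceeded 1 TPM.

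Of the mitochondrially encoded core, mt-Co1 at 32687 and 30898 TPM and mt-Co3 at 15084 and 13637 TPM stood far above the nuclear subunits. The third core gene, mt-Co2, did not in the first quantification, with 761 and 605 TPM against a mean of 1821 TPM for Cox4i1, and it had 4436 and 3864 TPM in the second. Of the genes for cytochrome c, the electron donor, the somatic form Cycs had 73.6 and 71.05 TPM, while the testis form Cyct had 0 and 0.07 TPM. Cycs also moved with the quantification, to 868 and 881 TPM in the second. All 28 genes for assembly, copper delivery and haem exceeded 1 TPM in the first quantification, at a median of 23.4 TPM against 560.4 TPM for the 10 subunit genes. Highest among them in the first quantification were the copper chaperone Cox17 (94.9 and 109 TPM), Higd2a (90.59 and 95.04 TPM) and Cox14 (86.5 and 97.8 TPM), and lowest was Pet117 (2.54 and 4.13 TPM). In the second quantification 27 of the 28 reached 1 TPM, Pet117 had 0 and 0.46 TPM, and Higd1a was highest at 192 and 207 TPM.

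Cox7a1 and Cox8b are also known from brown fat, and fat markers were detected. Of 9 brown and white fat markers 7 exceeded 1 TPM, led by Fabp4 (488 and 411 TPM), which capillary endothelium also makes, Ucp1 (32.6 and 47.8 TPM), the uncoupling protein that defines brown fat, and Cidea (32.5 and 39.9 TPM), with Lep lowest at 0.29 and 0.31 TPM. Skeletal muscle, which shares the muscle forms, had few markers here: 3 of 11 markers exceeded 1 TPM, namely Acta1 (119 and 127 TPM), which heart also makes, Casq1 (4.24 and 4.61 TPM) and Tnni2 (3.28 and 2.47 TPM). The count was 5 in replicate 2 alone and 5 in the second quantification. The myosins Myh1, Myh2 and Myh4 had 0 counts in replicate 1 and at most 0.46 TPM in replicate 2 (Myh1, at 1.33 TPM there in the second quantification), and Ryr1 was lowest at 0.02 and 0.04 TPM. The fat markers did not move together between the libraries. Of the 7 above 1 TPM, 3 were higher in replicate 1 and 4, with Ucp1 and Cidea, lower. All 9 summed to 588 and 534 TPM, but Fabp4 made up most of both sums (488 and 411 TPM), so they do not show which library held more fat RNA. Cox7a1 differed by 0.03 and Cox8b by −0.06 on the log2 scale between the libraries. The part of fat RNA in their levels was not tested.

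The 10 genes have short transcripts, and the length correction weighs more on them than on most genes. Effective length in the first quantification, the number of positions at which a read could start, was 261 bases for Cox8b and 296 bases for Cox7a1 in replicate 1, against 978 bases for Cox7a2l. The second quantification subtracted more, leaving 87.7 bases for Cox8b, 139 for Cox7a1 and 703 for Cox7a2l. Without any correction for length, the log2 ratio of counts was 2.35 for Cox6a2 over Cox6a1, 1.07 for Cox8b over Cox8a and 0.08 for Cox7a1 over Cox7a2. All 3 muscle forms still stood above their partners, by 5.11-fold, 2.10-fold and 1.06-fold.

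The quantifications also differed in the counts they gave these genes. The second held fewer counts than the first for 8 of the 10, with ratios in replicate 1 of 0.474 for Cox8b, 0.537 for Cox7a1, 0.569 for Cox6a2 and 0.587 for Ndufa4, while Cox7a2 stood at 1.00 and Cox7a2l at 1.21. Over all 12868 genes that could be compared, the median ratio was 1.07, and over 130 protein-coding genes of like length and level (effective length under 600 bases and at least 100 TPM) it was 0.878. The middle 50% of those 130 genes ran from 0.672 to 1.07, so the 3 muscle forms and Ndufa4 lay below it.

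For Cox7a1 over Cox7a2 the change lay in the counts. The log2 ratio of counts was 0.10 and 0.07 in the first quantification and −0.80 and −0.78 in the second, while the part added by length was 0.81 in both libraries of the first and 0.75 and 0.81 in the second. For Cox8b over Cox8a both parts moved, in opposite directions: the counts gave 1.12 and 1.02 in the first and 0.45 and 0.34 in the second, and length added 0.79 in both libraries of the first and 1.28 and 1.31 in the second. Cox6a2 over Cox6a1 moved through the counts alone, from which the first gave 2.46 and 2.24 and the second 1.94 and 1.71, with length adding −0.30 in every case. Its muscle form held 75.8% and 72.7% of the pair in the second quantification, and that of subunit 8 held 76.7% and 76.0%. These shares count all transcripts, and in the second quantification only 10.3% and 9.76% of Cox6a1 was in protein-coding ones.

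**Figure D3:**
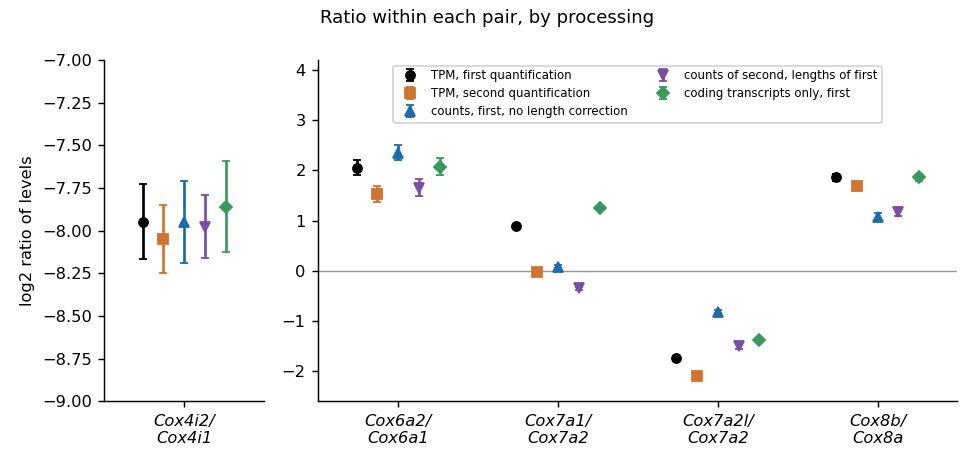
Log2 ratio of the first named form over the second for 5 pairs under 5 ways of processing, as the mean of 2 libraries with the SD as bars, with Cox4i2 over Cox4i1 on an axis of its own. Cox6a2 over Cox6a1 and Cox8b over Cox8a stay above 1 in all 5, and Cox7a1 over Cox7a2 runs from −0.35 to 1.25.

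The 10 genes have 29 annotated transcripts in all, and 8 genes have more than 1. Within each quantification, replicate 1 and replicate 2 had 1 leading transcript in common for each of the 8. Between the quantifications it was the same for only 2 of the 8, Cox7a2l-201 and Cox8a-201. Cox6a2-201 and Cox8b-201 are the only transcripts of their genes.

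In the first quantification the leading transcript was protein coding for all 8 genes. Cox4i1-201 held 93.5 ± 2.81% of its gene's TPM, Cox6a1-201 98.9 ± 0.806% and Ndufa4-204 85.6 ± 0.841% (SD, n = 2 each). Cox4i2-201 held all of the Cox4i2 level, Cox7a1-201 held 97.5% and 97.6%, and Cox8a-201 held 99.7% and 99.9%. Cox7a2 was the exception in its transcript types: Cox7a2-201 held 77.9 ± 0.354% and the non-coding Cox7a2-203 held 21.6 ± 0.382% (SD, n = 2 each). Counting coding transcripts alone, the log2 ratio of Cox7a1 over Cox7a2 was 1.25 and that of Cox7a2l over Cox7a2 was −1.37.

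The second quantification divided the same genes differently. It gave 89.7% of Cox6a1 in replicate 1 and 90.2% in replicate 2 to Cox6a1-202, a transcript with a retained intron, and 54.0 ± 0.0432% of Cox7a2 to Cox7a2-203 (SD, n = 2). Cox4i1 was led by Cox4i1-205 at 68.0 ± 3.59%, with Cox4i1-207, a transcript marked for nonsense-mediated decay, at 23.3 ± 2.20%. For Cox4i2 the lead passed to Cox4i2-202 at 99.9%, for Cox7a1 to Cox7a1-202 at 56.8 ± 4.90%, and for Ndufa4 to Ndufa4-205 at 64.2%, which had held 13.7% in the first. Cox7a2l-201 held 75.9 ± 0.782%, beside Cox7a2l-204, with a retained intron, at 22.3 ± 0.345%. Cox8a-201 held 84.8 ± 0.449%, beside the decay-marked Cox8a-202 at 15.2 ± 0.449%.

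Protein-coding transcripts held at least 90% of the level for 9 of 10 genes in the first quantification and for 5 of 10 in the second. The widest gap was that of Cox6a1, at 10.3% and 9.76% coding in the second against 98.3% and 99.5% in the first. The competing transcripts share much of their sequence. Of the 100-base windows of Cox7a2-201, 49.5% also occur in Cox7a2-203, for Cox6a1-201 67.2% occur in Cox6a1-202, and for Cox4i2-201 91.2% occur in Cox4i2-202. Which transcripts the heart makes is thus not settled by the tables, whereas the sums per gene gave the same direction in both quantifications for 4 of the 5 ratios.

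**Figure D4:**
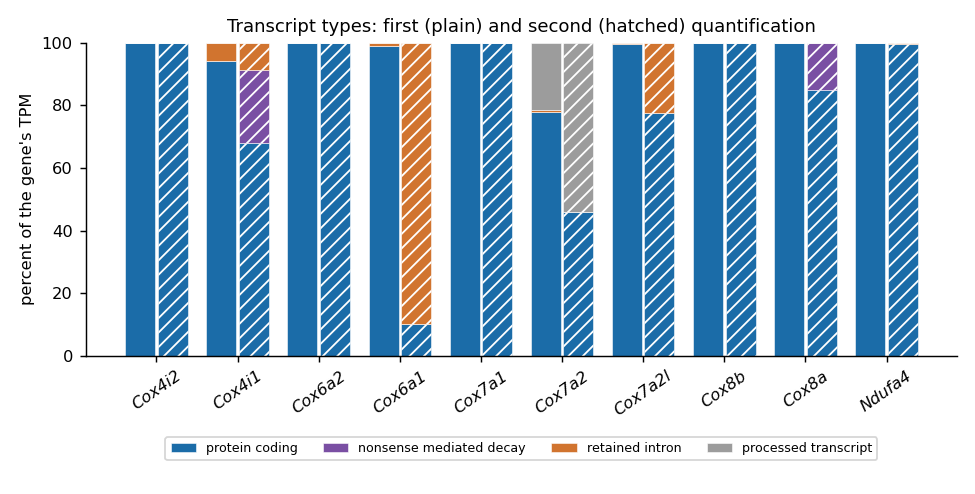
Percent of each gene's TPM in protein-coding, nonsense-mediated decay, retained intron and processed transcripts, mean of 2 libraries, with plain bars for the first quantification and hatched bars for the second. The coding share of Cox6a1 is 98.9% in plain bars, against 10.3% and 9.76% in the libraries behind the hatched bar, and that of Cox7a2 is 77.9% and 45.9%.

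Reads of the paired forms could be told apart. No 100-base window was shared between any of the 10 genes, and 7 of them shared none with any other annotated gene. Expected counts were whole numbers, within 0.005, in both libraries for 9 of the 10 genes, all except Cox7a2l, against 82.3% of the 12876 genes tested. Cox4i1 shared 3.13% of its windows with Emc8, which overlaps it by 352 bases on the opposite strand and had 623.02 and 683 counts. No source used here says whether counting used strand, so reads in that overlap cannot be assigned with certainty. Cox6a2 lies wholly inside Itgad on the opposite strand, and Itgad had 1 count in each library.

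Between the libraries the 10 genes differed little. None met the rule of size (2-fold or more, a mean count of 50 or more and deposited intervals apart). Of 12876 genes 0.349% met it, 0.303% higher in replicate 1 and 0.0466% lower. Deposited intervals were apart for 4 of the 10, Cox4i1, Cox6a1, Cox8b and Cox8a, all lower in replicate 1. Of all genes tested 12.1% were apart, 5.62% higher in replicate 1 and 6.5% lower. The differences of replicate 1 over replicate 2, on the log2(TPM + 1) scale with the median over 13043 expressed genes removed, ran from −0.20 for Cox6a1 to 0.23 for Cox4i2, with a median of −0.03. The median absolute difference was 0.05 for the 10 genes and 0.12 for all expressed genes. These sets were not matched for counts, which were 2071 or more per library for all of the 10 genes but Cox4i2 (141 and 116). The smaller spread is therefore not shown to be particular to the 10 genes.

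By counts scaled to library totals, Cox6a1 stood at 0.843 of its replicate 2 level (95% counting interval 0.794 to 0.895), Cox8a at 0.867 (0.825 to 0.912) and Cox4i1 at 0.911 (0.897 to 0.925). Cox6a2 stood at 0.983 (0.957 to 1.01), Cox8b at 0.930 (0.898 to 0.962), Cox7a1 at 0.987 (0.953 to 1.02) and Cox7a2 at 0.963 (0.929 to 0.998). On this scale the median expressed gene stood at −0.05 (log2). The counting interval excluded 1 for 6 of the 10 genes, but it covers counting error only and not the spread between hearts. These 6 were Cox4i1, Cox6a1, Cox8a, Cox8b, Cox7a2 and Cox7a2l (0.935, interval 0.892 to 0.98), all lower in replicate 1, as was the median expressed gene. How many of all genes had an interval that excluded 1 was not computed. The count of 6 is therefore not shown to be particular to the 10 genes. Replicate 1 also held more blood RNA, 1.29-fold by the summed markers, led by Hbb-bs (12978 and 10050.2 TPM), Hba-a1 (10905 and 8286 TPM) and Hba-a2 (10270.3 and 8045 TPM). Its part in these differences was not tested.

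**Figure D5:**
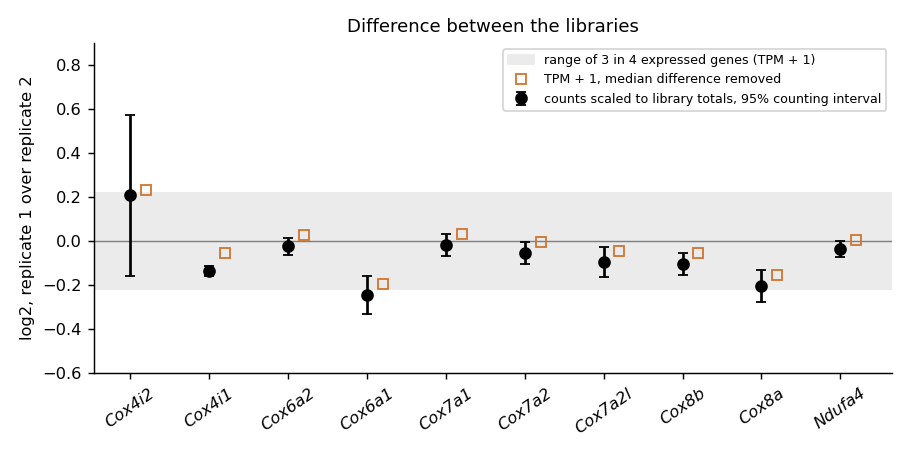
Log2 difference of replicate 1 over replicate 2 for each gene, from counts scaled to library totals (filled points, with 95% counting intervals) and from TPM + 1 with the median difference removed (open squares). The grey band, up to 0.22 on either side of 0, holds 3 in 4 expressed genes, and the squares of 9 of the 10 genes lie within it, with Cox4i2 at 0.23 just outside.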

How the data were processed

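Tables of 2 quantifications per library were used, both made by the authors with mm10 and GENCODE M21, per the readme deposited with them. Aligner, program names and version numbers were not given in the sources used here. In the first quantification the deposited tables hold, per the file headers, an expected count for each gene and transcript (reads divided between features, not normalized) and TPM. Its transcript tables add, per the file headers, the share of each transcript in its gene in percent. The deposited interval bounds of the posterior mean TPM are a score of precision within 1 library. The second, per the file headers, lists for each transcript an estimated count and a TPM, which were added up by gene. Effective length was 99 bases under transcript length in the first and, in transcripts over 5000 bases, 335.1 and 334.1 bases under it in the second, with less taken off short transcripts.

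From these, levels, ratios within pairs, sums and transcript shares were computed per library and given as mean ± SD. Of the 36404376 and 34569708 expected counts, 36197643 and 34358598 were in annotated genes, and these totals scaled the exact Clopper-Pearson intervals (95%). Differences between libraries used log2(TPM + 1), a pseudocount of 1, with the median over genes of at least 1 TPM removed. Scaling alternatives used TMM factors from edgeR 4.0.16, and median-of-ratios size factors from DESeq2 1.42.0 on expected counts rounded to whole numbers, under R 4.3.3. Python 3.11.15 with scipy 1.17.1, pandas 2.3.3, numpy 2.4.6 and, for plots, matplotlib 3.10.9 was used. Promoters came from the RefSeq table for GRCm38.p6, in which 7 of the 10 genes were matched, and protein sequences were not used here.

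The 10 genes, the lists and the alternatives were chosen with earlier results of these data known. Beside the 10 genes, the text names in each list the 3 genes with the highest mean, the lowest gene, genes past the rule of size and genes at 0 in both libraries, with leading transcripts and transcripts of at least 10% of a gene. A few others (the surfactant genes, the myosins, Cox6b2, Cox7b, Cox7c, Gm6969, Emc8 and Itgad) were named after their values were seen. A marker gene that this rule names is not reported here.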

Additional observations from a re-analysis of the deposited data

How the results depend on the processing

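The log2 ratio of Cox7a1 over Cox7a2, 0.89 as reported, fell to −0.016 in the second quantification, with opposite signs in the 2 libraries. It reversed to −0.35 with counts of the second over effective lengths of the first. It moved to 0.085 for counts with no length correction and to 1.25 for coding transcripts, both from the first quantification. Cox6a2 over Cox6a1 (2.05) moved to 1.53, 1.66 and 2.35 under the first 3 of these settings in that order, Cox8b over Cox8a (1.86) to 1.69, 1.16 and 1.07, and Cox7a2l over Cox7a2 (−1.73) to −2.10, −1.49 and −0.81, with −1.37 for coding transcripts. The cause of these shifts was not tested. Cox4i2 over Cox4i1 stayed between −8.05 and −7.76 under the 6 other settings. Leaving out 1 library at a time gave −8.10 to −7.79 for Cox4i2 over Cox4i1, 1.94 to 2.17 for Cox6a2 over Cox6a1, 0.87 to 0.91 for Cox7a1 over Cox7a2, −1.75 to −1.71 for Cox7a2l over Cox7a2 and 1.81 to 1.91 for Cox8b over Cox8a. None of the 10 genes met the rule of size under its 6 alternatives, while its count over all genes, 45, was 213 at 1.5-fold, 61 without intervals, 52 with no count minimum, 62 with TMM, 64 with size factors and 89 with a pseudocount of 0.1. The split of genes higher against lower in replicate 1 was 4 and 6 as reported, 2 and 8 without removing the median, 5 and 5 with size factors and 6 and 4 with spike-in scaling. No paired analysis was possible because the series holds 1 group. With 2 libraries of 1 tissue, no difference between conditions, ages or strains can be read from these levels, and depth limits only Cox4i2 among the 10 genes.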
